A study of Mus musculus with 15 samples.

Results

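The transcripts of Polycomb repressive complex 2 (PRC2) were followed in mouse zygotes and 2-cell embryos with or without maternal Usp16. The 9 genes were chosen by name, as the rows of the expression table equal to Ezh1, Ezh2, Eed, Suz12, Jarid2, Mtf2, Phf1, Phf19 and Aebp2, and all 9 were found among 14392 genes. Their levels were given as FPKM (fragment counts scaled to transcript length and to the size of the library) in 8 RNA-seq libraries of 10 embryos each, 2 for WT and 2 for cKO at each stage. Because of the scaling to length, levels of different genes can be set side by side, though only roughly. Comparisons between libraries depend on how the libraries are scaled, as described below. The series also holds 7 H2AK119ub1 chromatin samples, which were not analysed here.

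All mice were on a C57BL/6 background. WT embryos came from Usp16+/+ mothers. The cKO embryos came from Usp16 fl/fl;Gdf9-Cre mothers, in which Cre is driven in oocytes, and the labels give these embryos as maternal - and paternal + for Usp16. The mothers were 21 to 23 days old, were superovulated and were mated with WT males of 10 to 12 weeks. Zygotes were taken from the oviducts 28 h after hCG, and embryos were cultured in KSOM. A cKO embryo thus carried an intact paternal Usp16 allele, and the model removes the oocyte's own supply rather than the gene in every cell. The embryos of a library were pooled, and nothing in the sources used here says whether the 2 libraries of a group came from separate mothers, so the p-values measure the spread between these libraries, which may be technical.

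PRC2 places methyl groups on lysine 27 of histone H3 and so helps to keep developmental genes silent. Its core holds one of the alternative methyltransferases Ezh1 and Ezh2, the scaffold Suz12, the reader Eed, which binds the methylated lysine and stimulates the enzyme, and a histone chaperone of the Rbbp4 and Rbbp7 pair. Accessory subunits join the core in alternative forms: the Polycomb-like proteins Phf1, Mtf2 and Phf19 mark PRC2.1 and can bind CpG-rich DNA, whereas Jarid2 and Aebp2 mark PRC2.2 and can recognise H2AK119ub1, the ubiquitin mark that Usp16 removes. Oocytes and early mouse embryos also use maternal H3K27me3 to silence a small set of maternal alleles. The comparisons below ask how the transcripts for these subunits stood at both stages and whether they differed when the mother had lacked Usp16 in her oocytes.

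The targeted gene was examined first. Its level was 184 and 187 FPKM in WT zygotes, against 16.8 and 22.0 FPKM in cKO zygotes. In 2-cell embryos it was at 168 and 183 FPKM in WT and at 168 and 84.8 FPKM in cKO. The deletion was therefore visible in both cKO zygote libraries, while the cKO 2-cell libraries, whose embryos carry the paternal allele, reached WT levels in 1 library and not in the other. By limma (log2 of FPKM + 1, 4 groups in 1 model, Benjamini-Hochberg adjustment over all 14392 genes), the Usp16 difference in zygotes was -3.21 with an SE of 0.34, and even this difference had an adjusted p of 0.191.

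The libraries differed in ways that touch every value below. The depth of the libraries is unknown, because the table holds no counts. The FPKM summed to between 547752 and 593317 in 7 libraries and to 770989 in cKO 2-cell replicate 2. The table lists no value below 1. Between 4242 and 4747 genes were listed at 1 in the zygote libraries, 1642 and 1716 in the WT 2-cell libraries, and 3684 and 4240 in the cKO 2-cell libraries. Over genes above 1 in both libraries of a group, the median ratio between replicates was 1.17 to 1.24 in the other 3 groups and 1.67 in cKO 2-cell embryos. The cKO 2-cell libraries thus varied most. The summed FPKM of the 7 oocyte and zygote markers was 8399 to 8718 in WT zygotes, 9259 to 9316 in cKO zygotes, 2485 to 3024 in WT 2-cell embryos and 715 to 1129 in cKO 2-cell embryos, and all 7 stood above 1 in every library. The 2-cell markers with a row (3 of 5: Zscan4c, Zscan4d and Zfp352) summed to 4.45 to 7.99 FPKM in zygotes, 332 to 539 in WT 2-cell embryos and 126 to 133 in cKO 2-cell embryos. The summed oocyte list was carried by Btg4 and Bmp15, whose means were 1757 and 534 FPKM in WT and 345 and 73.6 in cKO 2-cell embryos. Nlrp5 and Zar1 were also lower there, but Zp3 (93.0 in WT and 132 in cKO) and Gdf9 (249 and 316) had higher means and Mos (4.24 and 4.42) about the same, and in zygotes Nlrp5 and Zar1 had lower means in cKO while the sum was higher. Of 7 cumulus and granulosa markers 2 had a row, Foxl2 was at 1 in all 4 zygote libraries, and the pair summed to 23.3 to 27.7 FPKM in zygotes and 2.00 to 2.84 in 2-cell embryos. Of 4 sperm markers 3 had a row, and they summed to 15.5 to 22.1 FPKM in zygotes and 3 to 10.4 in 2-cell embryos, with Prm1 and Tnp1 at 1 in the zygotes. In pooled embryos, fewer cells with a transcript and less RNA per cell cannot be told apart. The part of these differences in the results for PRC2 was not tested.

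**Figure D1:**
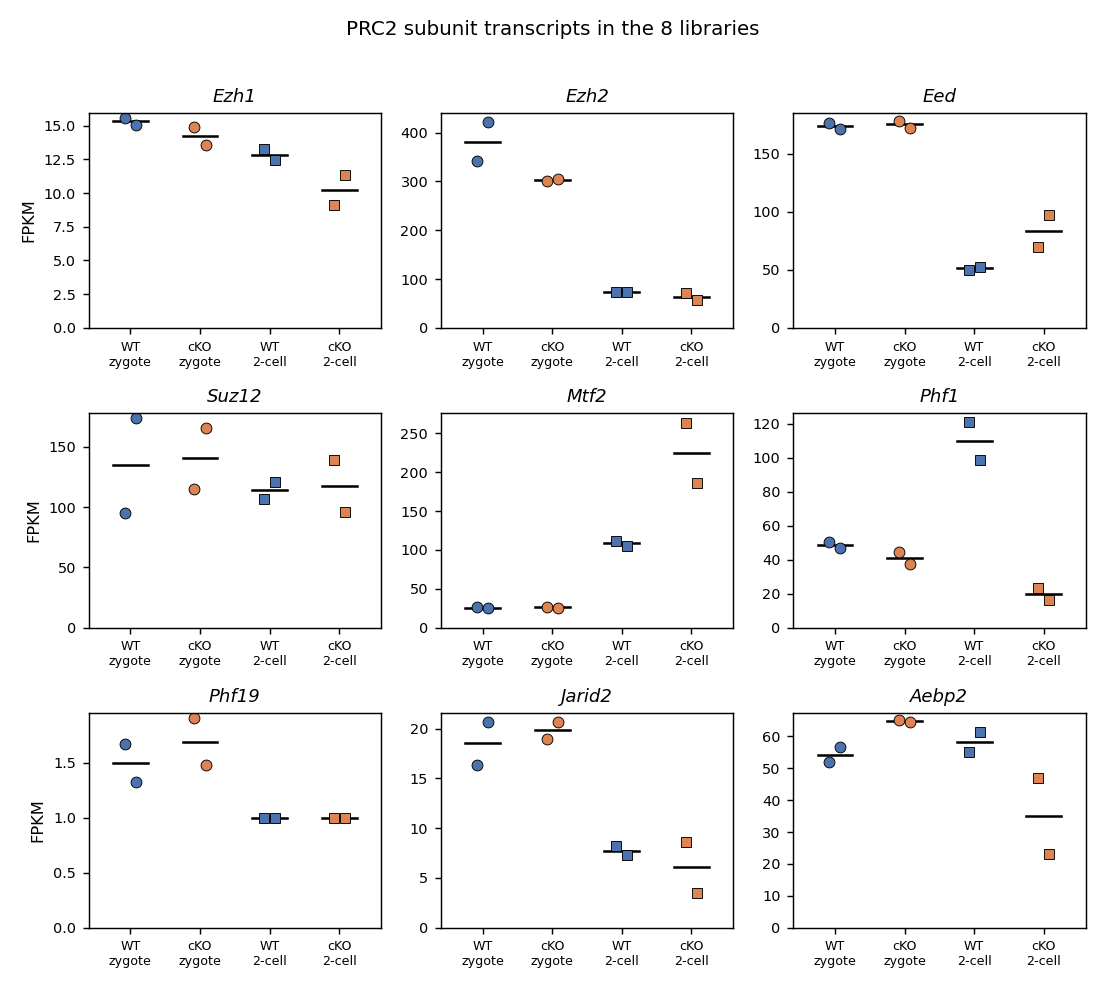
Level of each PRC2 subunit in the 8 libraries, in FPKM on a linear axis from 0 with its own range in each panel. Circles are zygote and squares 2-cell libraries, blue is WT and orange is cKO, and the black line is the mean of 2 libraries. Mtf2 and Phf1 lay close together in WT 2-cell embryos and far apart in cKO 2-cell embryos.

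Of the enzymes, Ezh2 had the highest level of the 9 genes in zygotes. It was at 342 and 422 FPKM in WT zygotes, 301 and 305 in cKO zygotes, 72.6 and 72.6 in WT 2-cell embryos, and 70.9 and 56.8 in cKO 2-cell embryos. Every zygote library stood above every 2-cell library, and at each stage the cKO libraries lay below the WT libraries by a small step. The Ezh2 mean in WT zygotes was higher than that of 98.4% of all genes in that group, and in WT 2-cell embryos higher than that of 89.3%. Ezh1, the alternative enzyme, was far lower, at 15.6 and 15.1 FPKM in WT zygotes, 14.9 and 13.6 in cKO zygotes, 13.2 and 12.5 in WT 2-cell embryos, and 9.11 and 11.4 in cKO 2-cell embryos. The Ezh1 libraries fell within a narrow range, and the group means ranked in that same order.

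The core scaffold and reader moved apart from each other. Eed was at 176 and 171 FPKM in WT zygotes, 178 and 172 in cKO zygotes, 50.2 and 52.2 in WT 2-cell embryos, and 69.3 and 96.9 in cKO 2-cell embryos. The zygote libraries of both genotypes overlapped, and the cKO 2-cell libraries lay between the WT 2-cell and the zygote libraries. Suz12, which holds the complex together, was at 95.3 and 174 FPKM in WT zygotes, 115 and 165 in cKO zygotes, 106 and 121 in WT 2-cell embryos, and 139 and 95.7 in cKO 2-cell embryos. The Suz12 libraries of all 4 groups overlapped, and the replicates of WT zygotes differed 1.82-fold, the widest spread of any member in that group.

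Among the PRC2.1 subunits, Mtf2 was at 26.1 and 25.4 FPKM in WT zygotes, 26.8 and 25.5 in cKO zygotes, 112 and 105 in WT 2-cell embryos, and 264 and 186 in cKO 2-cell embryos. The 4 zygote libraries lay within a narrow range, the WT 2-cell libraries stood above them, and both cKO 2-cell libraries stood above these. Phf1 was at 50.7 and 46.8 FPKM in WT zygotes, 44.6 and 37.4 in cKO zygotes, 121 and 98.9 in WT 2-cell embryos, and 23.1 and 16.5 in cKO 2-cell embryos. Phf1 thus had its highest libraries in WT 2-cell embryos and its lowest in cKO 2-cell embryos, with no overlap between any 2 groups. Phf19 was close to the floor of the table, at 1.67 and 1.33 FPKM in WT zygotes, 1.90 and 1.47 in cKO zygotes, and listed at 1 in all 4 libraries of 2-cell embryos.

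Of the PRC2.2 subunits, Jarid2 was at 16.4 and 20.7 FPKM in WT zygotes, 18.99 and 20.67 in cKO zygotes, 8.17 and 7.28 in WT 2-cell embryos, and 8.58 and 3.54 in cKO 2-cell embryos. All zygote libraries stood above all 2-cell libraries, and the cKO 2-cell replicates differed 2.42-fold. Aebp2, a zinc finger subunit, was at 52.0 and 56.6 FPKM in WT zygotes, 65.2 and 64.4 in cKO zygotes, 55.1 and 61.3 in WT 2-cell embryos, and 47.0 and 23.1 in cKO 2-cell embryos. Only the cKO 2-cell libraries of Aebp2 lay below the other groups, and there too the replicates were more than 2-fold apart.

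The order of the subunits by level changed between the stages. In WT zygotes it ran, by mean FPKM, Ezh2, Eed, Suz12, Aebp2, Phf1, Mtf2, Jarid2, Ezh1 and Phf19, and only Eed and Suz12 overlapped with their neighbour. In cKO zygotes the order was the same, and no neighbours overlapped. In WT 2-cell embryos Suz12, Phf1 and Mtf2 led at 114, 110.0 and 108 FPKM with overlapping libraries, followed by Ezh2, Aebp2, Eed, Ezh1, Jarid2 and Phf19. In cKO 2-cell embryos Mtf2 led at 225 FPKM, Suz12, Eed and Ezh2 followed with each overlapping its neighbour, then came Aebp2 and Phf1, which overlapped, and then Ezh1, Jarid2 and Phf19.

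In the mm9 annotation the members lie on 7 chromosomes: Ezh1 at chr11:101052429-101087777, Ezh2 at chr6:47480273-47545340, Eed at chr7:97103166-97129493, Suz12 at chr11:79806608-79847625, Jarid2 at chr13:44824843-45017012, Mtf2 at chr5:108494693-108538023, Phf1 at chr17:27070072-27074835, Phf19 at chr2:34749277-34769546 and Aebp2 at chr6:140570970-140626993. Smart-seq2 does not mark the strand. Mtf2 shares 395 of its 5263 exon bases (7.51%) with Tmed5 on the opposite strand, so reads there cannot be assigned to either gene. Tmed5 was at 3.35 to 6.54 FPKM in zygotes, 101 and 119 in WT 2-cell embryos, and 77.9 and 187 in cKO 2-cell embryos. Tmed5 was therefore also low in zygotes, while its cKO 2-cell libraries lay on either side of the WT libraries, unlike those of Mtf2. Ezh2 and Suz12 share 174 and 178 exon bases with antisense genes that have no row in the table. Usp16 shares 193 of its 9445 exon bases (2.04%) with Cct8 on the opposite strand. Cct8 was at 191 and 188 FPKM in cKO zygotes, and at 338 and 158 in cKO 2-cell embryos. In WT it was at 210 and 193 FPKM in zygotes and 118 and 157 in 2-cell embryos. The part of such reads in the Usp16 values was not tested.

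The promoters of the 3 members on which the results turn are shown because Polycomb-like proteins bind CpG-rich DNA and because Ezh2, Mtf2 and Phf1 had the clearest changes. The sequences are from RefSeq (GRCm38.p6, a build other than the mm9 used for the expression values), from 250 bases before the start of the gene to 50 after it, on the gene's own strand, with each CG in capitals (a CG reads the same on both strands).
Ezh2, chr6:47594981-47595280, - strand: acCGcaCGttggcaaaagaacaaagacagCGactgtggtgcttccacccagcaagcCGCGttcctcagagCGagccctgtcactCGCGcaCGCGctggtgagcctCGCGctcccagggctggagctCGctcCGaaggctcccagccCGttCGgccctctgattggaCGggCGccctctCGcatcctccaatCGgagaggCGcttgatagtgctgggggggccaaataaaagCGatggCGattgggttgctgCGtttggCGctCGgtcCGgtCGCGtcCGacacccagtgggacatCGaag
Mtf2, chr5:108065424-108065723, + strand: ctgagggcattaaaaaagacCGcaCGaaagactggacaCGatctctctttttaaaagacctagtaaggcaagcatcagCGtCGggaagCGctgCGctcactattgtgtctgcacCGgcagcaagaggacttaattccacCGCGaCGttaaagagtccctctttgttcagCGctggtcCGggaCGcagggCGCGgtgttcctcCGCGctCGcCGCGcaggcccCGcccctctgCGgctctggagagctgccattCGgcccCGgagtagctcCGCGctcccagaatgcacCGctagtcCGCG
Phf1, chr17:26932877-26933176, + strand: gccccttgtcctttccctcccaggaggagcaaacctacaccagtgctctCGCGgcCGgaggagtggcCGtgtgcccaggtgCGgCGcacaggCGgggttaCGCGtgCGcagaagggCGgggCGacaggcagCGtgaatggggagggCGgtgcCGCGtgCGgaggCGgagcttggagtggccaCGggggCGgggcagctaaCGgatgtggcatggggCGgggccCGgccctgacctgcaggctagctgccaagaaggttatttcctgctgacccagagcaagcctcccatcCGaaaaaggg

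Ezh2 held 31 CG dinucleotides in these 300 bases, Mtf2 30 and Phf1 24, against a median of 7 over 32851 promoters of 27025 genes. Fewer CG were found in 89.4%, 88.3% and 80.0% of all promoters, respectively. RefSeq gives Mtf2 a second start, chr5:108077915-108078214, with 2 CG. All 9 members were matched, with 13 promoters in all, and their counts ran from 2 at this second Mtf2 start to 41 at Suz12. Ezh2, which was lower in 2-cell embryos, and Mtf2, which was higher there, thus each had a start of similar CG content. Eed, also lower in 2-cell embryos, held 17 CG. Which Mtf2 start was in use is unknown, and a relation of CG content to the direction of change was not tested.

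Development from the zygote to the 2-cell stage is the time at which maternal RNA is degraded and the embryonic genome becomes active. In WT embryos Ezh2, Eed, Jarid2 and Phf19 fell, whereas Mtf2 and Phf1 rose. Thus 4 of 9 members were called lower and 2 of 9 higher at an adjusted p under 0.05 by limma, where 15.5% of all genes were called lower and 34.2% higher. The median log2 change of the members was -0.24, and that of all genes was 0.27. Over the 7142 genes above 1 in all 8 libraries it was 0.29. The share of all genes called lower includes genes listed at 1 in the zygotes, which could not fall. It is therefore not a like background for the members. Ezh2 changed most, by -2.37 (SE 0.20, adjusted p = 0.000300), a 5.26-fold lower mean. Eed changed by -1.74 (SE 0.21, adjusted p = 0.000985), a 3.39-fold lower mean.

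Mtf2 rose by 2.03 (SE 0.21, adjusted p = 0.000602), and its mean was 4.20-fold higher. Phf1 rose by 1.15 (SE 0.23, adjusted p = 0.00767), and its mean was 2.25-fold higher. Jarid2 changed by -1.16 (SE 0.37, adjusted p = 0.0422), a call that held under 9 of 18 alternatives (adjusted p 0.00405 to 0.185). It was lost with a replicate block (adjusted p = 0.0575), with the same sum, without a pseudocount and without any 1 of the zygote or WT 2-cell libraries. Phf19 changed by -0.32 (SE 0.10, adjusted p = 0.0461), but its levels were next to the floor and 8 of 17 alternatives kept the call. Ezh1 (-0.24), Suz12 (-0.18) and Aebp2 (0.10) did not pass the test. By the fold rule of the study, a ratio of means above 3, Ezh2 and Eed were lower and Mtf2 was higher, where 8.78% of all genes were lower and 26.0% higher. The calls of Ezh2, Eed, Mtf2 and Phf1 held under all 18 alternatives. Among all genes, 4921 were called higher and 2224 lower as deposited, and 3102 and 3935 after quantile normalization.

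In cKO embryos the same step was examined between cKO zygotes and cKO 2-cell embryos. Mtf2 rose, and Ezh2, Eed, Jarid2, Phf1 and Phf19 fell, so that 1 of 9 members was called higher and 5 of 9 lower, against 24.6% and 27.1% of all genes. The median log2 change was -0.95 over the members and 0 over all genes. Over the 7142 genes above 1 in all 8 libraries it was -0.15. Here too the share of all genes called lower includes genes listed at 1 in the zygotes. Mtf2 rose by 3.04 (SE 0.21, adjusted p = 0.000143), an 8.60-fold higher mean. Ezh2 changed by -2.24 (SE 0.20, adjusted p = 0.000298), a 4.74-fold lower mean, and Eed by -1.09 (SE 0.21, adjusted p = 0.00539), a 2.11-fold lower mean.

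Phf1, which rose in WT embryos, fell in cKO embryos by 1.02 on the log2 scale (adjusted p = 0.0109, limma), a call lost without cKO zygote replicate 1 (adjusted p = 0.0734, range over 18 alternatives 0.00305 to 0.0734). Jarid2 fell by 1.66 on that scale (adjusted p = 0.0104), a 3.27-fold lower mean. This fold rests on cKO 2-cell replicate 2, being 2.31-fold without it and 5.60-fold without replicate 1, and the call was lost without cKO zygote replicate 1 (adjusted p = 0.0561) or replicate 2 (adjusted p = 0.0668, range over 18 alternatives 0.00119 to 0.0668). Without cKO 2-cell replicate 1 or 2, the fold was 7.13 or 10.1 for the higher Mtf2, and 5.33 or 4.27, 1.81 or 2.53 and 2.48 or 1.77 for the lower Ezh2, Eed and Phf1, all still called. The Phf19 call was lost without either (adjusted p = 0.0520 and 0.0536). Aebp2 (-0.95, adjusted p = 0.0509), Ezh1 (-0.45) and Suz12 (-0.26) did not pass the test. More than 3-fold lower were Ezh2 and Jarid2, and more than 3-fold higher was Mtf2, where 19.2% of all genes were lower and 22.8% higher. Suz12 was thus the subunit whose level differed least between the stages in cKO embryos, and in WT embryos Aebp2 was.

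**Figure D2:**
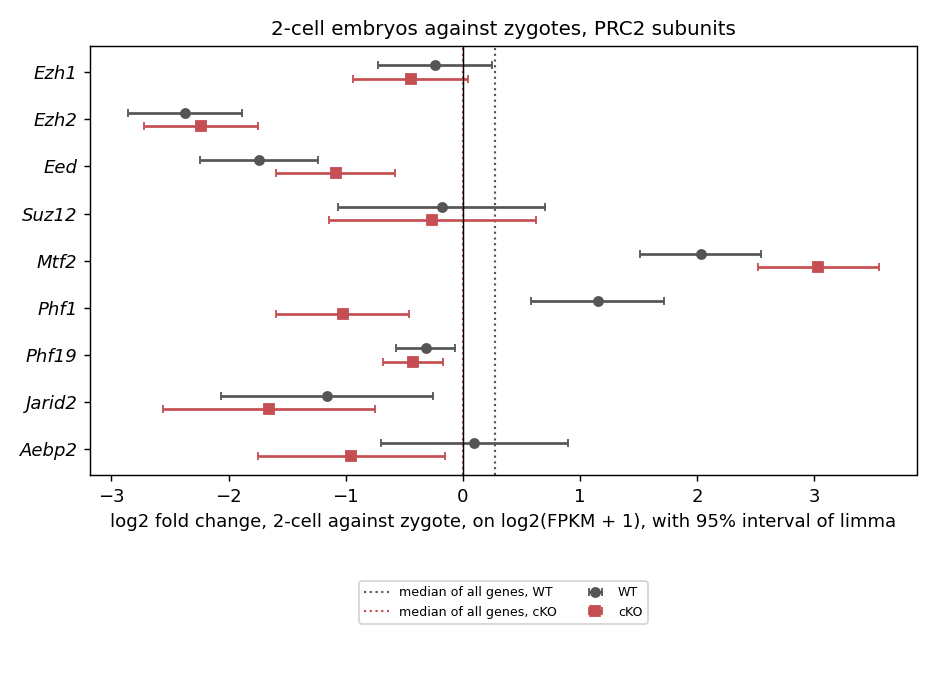
Log2 fold change of each subunit from the zygote to the 2-cell stage, in WT (grey circles) and cKO embryos (red squares), on the log2(FPKM + 1) scale, with the 95% interval of limma. Dotted lines mark the median of all genes. Ezh2 and Eed lie below 0 and Mtf2 above 0 in both genotypes, and Phf1 lies at 1.15 in WT and at -1.02 in cKO embryos.

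Zygotes were compared first by genotype, to see whether the subunit transcripts already differed in the embryos that inherited the oocyte's RNA. None of the 9 members was called in either direction by limma, and none was above 3-fold. Of all genes, 3 (0.0208%) were called higher and 0 (0%) lower, while 324 and 84 genes had an unadjusted p under 0.05 and no member was among them. More than 3-fold higher were 0.104% and lower were 0.0486% of all genes. The log2 differences of the members and of all genes had medians of 0.02 and 0.

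The mean of Ezh2 was 382 ± 56.2 FPKM in WT and 303 ± 3.07 in cKO zygotes (mean ± SD, n = 2 libraries each). The difference was -0.33 on the log2 scale, with a 95% interval of -0.82 to 0.16. Both cKO libraries of Ezh2, of Ezh1 and of Phf1 were below both WT libraries, and both of Aebp2 were above. The share of all genes separated in this way is not given, and none of these 4 differences passed the test, so this order is not read as a shift. Phf1 differed by -0.25 (95% interval -0.82 to 0.32), Aebp2 by 0.25 (95% interval -0.55 to 1.05) and Ezh1 by -0.10 (95% interval -0.59 to 0.39). The widest of these 4 intervals, that of Aebp2, includes a difference as large as the one called for Mtf2 at the 2-cell stage, and an exact permutation test of 2 libraries against 2 cannot give a p below 0.333.

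In 2-cell embryos the 2 Polycomb-like subunits Phf1 and Mtf2 differed between the genotypes in opposite directions. The methods of the study give no collection time for 2-cell embryos. The study reports that embryos from cKO mothers spent longer at this stage and that part of them arrested there. A difference of genotype and a difference of timing within the stage cannot be told apart here. Phf1 fell by 2.42 on the log2 scale (SE 0.23, adjusted p = 0.00198, limma), from 110.0 ± 15.6 FPKM in WT to 19.8 ± 4.68 in cKO 2-cell embryos (mean ± SD, n = 2 libraries each), a 5.54-fold lower mean. Mtf2 rose by 1.03 (SE 0.21, adjusted p = 0.0157), from 108 ± 4.67 to 225 ± 54.7 FPKM, a 2.08-fold higher mean. The other 7 members did not pass the test. Thus 1 of 9 members was called higher and 1 of 9 lower, against 6.16% and 24.6% of all genes, and 1 of 9 was more than 3-fold lower, against 13.5%, with none of 9 more than 3-fold higher, against 2.84%.

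The Phf1 call held under 18 of 19 alternatives, with adjusted p from 0.00160 to 0.0598, and was lost only when the 4 libraries of the stage were fitted alone. Without cKO 2-cell replicate 1 the Phf1 difference was -2.65, and without replicate 2 it was -2.19. Without cKO 2-cell replicate 1 the Mtf2 mean was 1.72-fold higher, and without replicate 2 it was 2.43-fold higher, both called. The Mtf2 call held under 13 of 19 alternatives, with adjusted p from 0.00173 to 0.116. It was lost without WT 2-cell replicate 1 (adjusted p = 0.0506) or replicate 2 (adjusted p = 0.0620), with libraries scaled to the same sum (adjusted p = 0.105), with quantile normalization (adjusted p = 0.0518), with the 4 libraries of the stage alone (adjusted p = 0.116) and with a spread for each group (adjusted p = 0.0985).

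Scaling matters at this stage, since the median log2 difference of all genes was -0.30, and that of the members -0.19. Of all genes 887 were called higher and 3538 lower. When libraries were scaled by the median of gene ratios, the median difference became 0, and 1437 genes were called higher and 1747 lower. Under that scaling Mtf2 (adjusted p = 0.00173), Phf1 (adjusted p = 0.00221) and also Eed (higher by 1.14, adjusted p = 0.0382) were called by limma. Phf1 was lower and Mtf2 higher under each of the scalings tried.

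**Figure D3:**
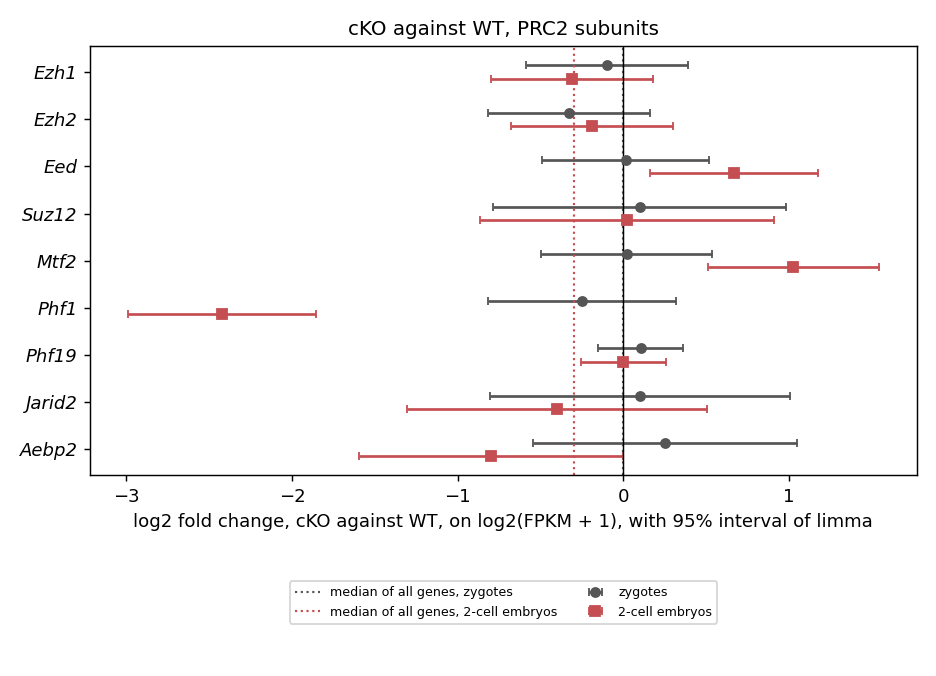
Log2 fold change of each subunit in cKO against WT embryos, in zygotes (grey circles) and 2-cell embryos (red squares), on the log2(FPKM + 1) scale, with the 95% interval of limma. Dotted lines mark the median of all genes, which was 0 in zygotes and -0.30 in 2-cell embryos. Phf1 at -2.42 and Mtf2 at 1.03 lie farthest from 0 at the 2-cell stage, and all intervals of the zygotes include 0.

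Eed came next among the members that did not pass. Its mean was 51.2 ± 1.42 FPKM in WT and 83.1 ± 19.5 in cKO 2-cell embryos (mean ± SD, n = 2 libraries each), both cKO libraries lay above both WT libraries, and the difference was 0.67 with an adjusted p of 0.0548 by limma (range over 19 alternatives 0.00483 to 0.225, under 0.05 in 5 of them). The share of all genes whose libraries were separated in this way is not given, so the order of the Eed libraries is not read as a shift. Aebp2 differed by -0.80 (95% interval -1.59 to -0.000265, unadjusted p = 0.0499, adjusted p = 0.117 by limma). Its call appeared only when cKO 2-cell replicate 1 was left out (-1.29, adjusted p = 0.00353). Jarid2 differed by -0.40 and had a sign that turned when cKO 2-cell replicate 2 was left out (0.14). Aebp2 and Jarid2, both of PRC2.2, were the 2 members whose cKO 2-cell replicates were more than 2-fold apart. For both the lower library was replicate 2, the one with the larger FPKM sum. This was not particular to them, since Ezh2, Suz12, Mtf2 and Phf1 were also lower in replicate 2. Ezh1 and Eed were higher there.

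The enzymes and the scaffold differed little at this stage. Ezh2 differed by -0.19 (95% interval -0.68 to 0.30), Ezh1 by -0.31 (95% interval -0.80 to 0.18) and Suz12 by 0.02 (95% interval -0.86 to 0.91). With the median-ratio scaling Ezh2 was at 0.28 and Ezh1 at 0.13, so the sign for the enzymes rests on the scaling. Phf19 was at the floor in both genotypes.

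Whether the genotype difference itself changed between the stages was tested with an interaction term. Phf1 passed, at -2.17 (SE 0.33, adjusted p = 0.0171, limma), and 1 of 9 members was thus called lower and none higher, where 10.2% of all genes were called lower and 1.58% higher (1474 and 227 genes as deposited, 657 and 449 with median-ratio scaling). The Phf1 call was lost when any 1 of the 4 zygote libraries was left out, with values from -2.30 to -2.05 and adjusted p from 0.0781 to 0.0999. In those 4 fits only 1 or 2 of all 14392 genes passed, so the loss was not particular to Phf1. Mtf2 (1.01, adjusted p = 0.0805), Eed (0.66, adjusted p = 0.193) and Aebp2 (-1.05, adjusted p = 0.188) did not pass. For these 3 genes a difference between the stages in the response to the maternal genotype was not shown. The 4 comparisons and this term share libraries, so their values are not separate evidence.

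Ratios between subunits within a library do not depend on the scaling of that library. They were chosen after the values were seen and are given without a test. The ratio of Mtf2 to Phf1 was 0.515 and 0.543 in WT zygotes, 0.600 and 0.682 in cKO zygotes, 0.923 and 1.06 in WT 2-cell embryos, and 11.4 and 11.3 in cKO 2-cell embryos. Phf1 thus exceeded Mtf2 in every zygote library, the pair was about equal in WT 2-cell embryos, and Mtf2 was in large excess in both cKO 2-cell libraries, which differed little in this ratio although they differed in other respects. The ratio of Ezh2 to Ezh1 was 20.1 to 28.01 in the zygote libraries, 5.48 and 5.82 in WT 2-cell embryos, and 7.79 and 4.99 in cKO 2-cell embryos, so the excess of Ezh2 was smaller at the 2-cell stage in both genotypes and the genotypes overlapped there.

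The ratio of Eed to Ezh2 was 0.406 to 0.593 in zygotes, 0.691 and 0.719 in WT 2-cell embryos, and 0.978 and 1.70 in cKO 2-cell embryos. That of Suz12 to Ezh2 was 0.279 to 0.543 in zygotes, 1.46 and 1.67 in WT 2-cell embryos, and 1.95 and 1.68 in cKO 2-cell embryos. In zygotes the Ezh2 transcript was therefore in excess over those of Eed and Suz12, and in 2-cell embryos Suz12 exceeded it in all 4 libraries. The sum of the PRC2.1 subunits over the sum of the PRC2.2 subunits was 0.757 to 1.15 in zygotes, 3.69 and 2.99 in WT 2-cell embryos, and 5.18 and 7.65 in cKO 2-cell embryos. The PRC2.1 sum was 205 and 234 FPKM in WT and 204 and 288 in cKO 2-cell embryos, whereas the PRC2.2 sum was 63.3 and 68.6 in WT and 55.6 and 26.6 in cKO 2-cell embryos. The PRC2.1 total thus overlapped between the genotypes.

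**Figure D4:**
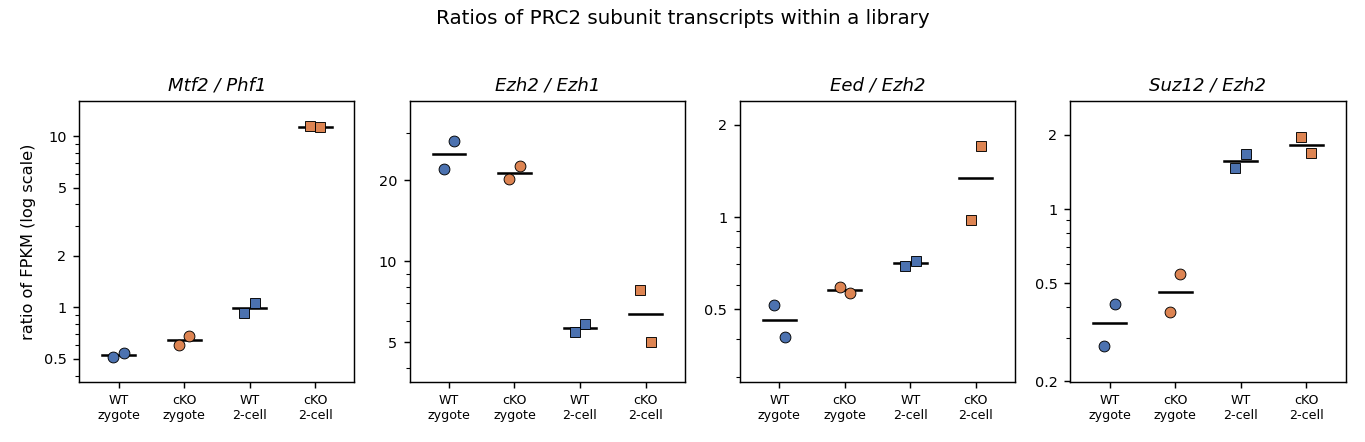
Ratio of the FPKM of 2 subunits within each library, on a log axis, for Mtf2 to Phf1, Ezh2 to Ezh1, Eed to Ezh2 and Suz12 to Ezh2. Circles are zygote and squares 2-cell libraries, blue is WT and orange is cKO, and the line is the mean. The ratio of Mtf2 to Phf1 stands at 11.4 and 11.3 in the cKO 2-cell libraries and at or below 1.06 in all others.

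The remaining genes of the complex were Rbbp4, Rbbp7, the facultative subunits Epop, Lcor and Lcorl, and Ezhip, an inhibitor of the enzyme that is known from germ cells. Epop and Ezhip were found under the names E130012A19Rik and AU022751. All 6 had a row, and in cKO against WT 2-cell embryos 2 of 6 were called lower, none higher, where 24.6% of all genes were called lower and 6.16% higher. Ezhip was at 814 and 666 FPKM in WT zygotes, 571 and 532 in cKO zygotes, 92.7 and 147 in WT 2-cell embryos, and 33.6 and 19.6 in cKO 2-cell embryos. The inhibitor's transcript was thus more abundant than that of Ezh2 in every zygote library, with a ratio of 1.58 to 2.38. The same held in both WT 2-cell libraries, with ratios of 1.28 and 2.03. Only in the cKO 2-cell libraries was the Ezhip transcript less abundant than that of Ezh2, with ratios of 0.474 and 0.345. Ezhip changed by -2.14 (SE 0.34, adjusted p = 0.00721, limma) in cKO against WT 2-cell embryos, and it was called lower under each scaling tried and without either cKO 2-cell library (6.13-fold lower without replicate 1 and 3.57-fold without replicate 2). Between the stages it changed by -2.65 in WT (adjusted p = 0.00129) and by -4.37 in cKO embryos (adjusted p = 0.000185).

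Lcor, which joins PRC2.1 in its longer protein form, was at 3.65 to 4.23 FPKM in zygotes and at 2.87 and 6.43 in WT 2-cell embryos, and was listed at 1 in both cKO 2-cell libraries. It changed by -1.42 (SE 0.31, adjusted p = 0.0181), a call lost with median-ratio scaling (adjusted p = 0.0708), with quantile normalization (adjusted p = 0.151) and without cKO 2-cell replicate 1 (adjusted p = 0.0515) or 2 (adjusted p = 0.0584). Rbbp7 had the highest mean of the complex in both zygote groups and in WT 2-cell embryos. It was at 1665 to 1958 FPKM in zygotes, 264 and 238 in WT 2-cell embryos, and 201 and 214 in cKO 2-cell embryos. In cKO 2-cell embryos the mean of Mtf2 (225 FPKM) was above that of Rbbp7 (207), with overlapping libraries. Between the stages Rbbp7 changed by -2.87 in WT (adjusted p = 0.000177) and by -3.02 in cKO embryos (adjusted p = 0.000125). Rbbp4 was at 11.4 to 14.7 FPKM in zygotes, 30.3 and 24.9 in WT 2-cell embryos, and 28.6 and 59.3 in cKO 2-cell embryos. In WT embryos 3 of the 6 genes were called lower between the stages (Rbbp7, Lcorl and Ezhip) and none higher, against 15.5% and 34.2% of all genes. In cKO embryos Rbbp7, Lcor, Lcorl and Ezhip were called lower and Rbbp4 higher, against 27.1% and 24.6% of all genes. None of the 6 was called between the zygote groups.

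The enzymes that remove the mark were Kdm6a and Kdm6b, listed together with Uty, the Y-linked paralogue of Kdm6a. None of the 3 passed between the genotypes at either stage. Kdm6b was at 41.8 to 54.5 FPKM in zygotes, 21.4 and 25.9 in WT 2-cell embryos, and 10.6 and 1.19 in cKO 2-cell embryos, a 4.00-fold lower mean at that stage with an adjusted p of 0.0558 by limma. The mean was lower without either cKO 2-cell library, but the size of the fold depended on the library. It was 2.23 without cKO 2-cell replicate 2 and 19.9 without replicate 1. Kdm6a was at 34.8 to 58.7 FPKM in zygotes and 13.0 to 19.8 in 2-cell embryos, and fell between the stages in both genotypes. Uty, listed at 1 in all zygotes, could not fall from there. It was called higher in both genotypes, in WT only as deposited or with libraries scaled to the same sum. Kdm6b fell between the stages in cKO embryos (by 3.35 on the log2 scale, adjusted p = 0.00840).

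PRC1, the complex that writes H2AK119ub1, had 9 of 11 listed genes in the table. In cKO against WT 2-cell embryos 1 was called higher and 1 lower, against 6.16% and 24.6% of all genes. The higher was Pcgf1, a subunit of variant PRC1, at 220 and 182 FPKM in WT and 484 and 539 in cKO 2-cell embryos (1.35, SE 0.31, adjusted p = 0.0226, limma). The lower was Yaf2, also of variant PRC1, at 24.7 and 26.8 FPKM in WT and 8.59 and 8.29 in cKO 2-cell embryos (SE 0.25, adjusted p = 0.00834), a 3.05-fold lower mean. Both calls held under each scaling, and with median-ratio scaling 4 of 9 were called higher and 1 lower, where 1437 and 1747 of all genes were. The Pcgf1 call was lost without cKO 2-cell replicate 2 (adjusted p = 0.0658), and the Yaf2 call held without either. No PRC1 gene was called between the zygote groups. Between the stages in WT embryos, where 34.2% of all genes were called higher and 15.5% lower, Pcgf3, Pcgf5 and Rybp rose and Pcgf1 and Kdm2b fell. Of these Pcgf5 changed most (5.12, adjusted p = 9.24e-05), and the calls of Pcgf3, Rybp and Kdm2b did not hold under every scaling.

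Of 19 developmental genes that PRC2 is known to silence in other cells, 9 had a row. The table holds only genes above 1 in at least 1 library, and 7 of the 9 were listed at 1 in both WT zygote libraries, so they could not fall from there and counts of direction over this list are not given. Pax6 and Gata4 were above 1 in both WT groups. Pax6 was at 11.5 and 11.2 FPKM in WT and 1.94 and 1.27 in cKO 2-cell embryos (-2.26, SE 0.26, adjusted p = 0.00300, limma), and it was called lower under each scaling and without either cKO 2-cell library.

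Gata4 was at 38.6 and 32.2 FPKM in WT and 52.4 and 30.0 in cKO 2-cell embryos and did not pass. Pax3, Gata6 and Sox1, called lower as well, were at or below 3.88 FPKM in every library, at 1 in all zygotes, and were not called with median-ratio scaling. In cKO 2-cell embryos Sox1 was at 1 in both libraries, and Pax3 and Gata6 exceeded 1 in a single library each (1.36 and 1.13 FPKM). These genes entered the table mainly through the WT 2-cell libraries, so the direction of their calls was largely fixed. Of 6 genes imprinted by maternal H3K27me3, 5 had a row, and none passed between the genotypes at either stage. Gab1 was at 4.79 and 4.14 FPKM in WT and 4.08 and 4.47 in cKO 2-cell embryos, and Jade1 (as Phf17) at 9.72 and 9.36 in WT and 6.46 and 6.46 in cKO 2-cell embryos (-0.50, adjusted p = 0.0582). Jade1 was called lower in cKO 2-cell embryos with the same sum (adjusted p = 0.0254) and Gab1 was called higher there with quantile normalization (adjusted p = 0.0197). Both were listed at 1 in all zygotes, entered the table through 2-cell libraries, and were called higher between the stages in both genotypes.

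**Figure D5:**
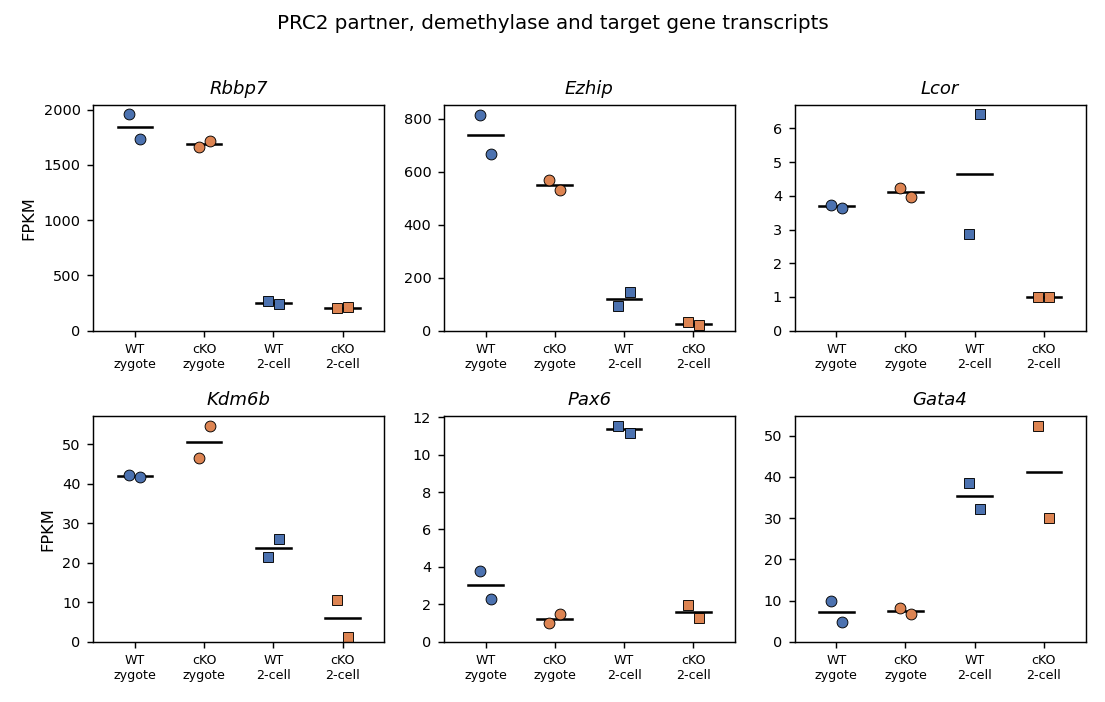
Levels in FPKM of the PRC2 chaperone Rbbp7, the inhibitor Ezhip, the subunit Lcor, the demethylase Kdm6b and the developmental genes Pax6 and Gata4, on linear axes from 0. Circles are zygote and squares 2-cell libraries, blue is WT and orange is cKO, and the line is the mean of 2 libraries. Ezhip and Rbbp7 are highest in zygotes, and Pax6 is highest in WT 2-cell embryos.

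The genes whose profile over the 8 libraries was most like that of a core subunit were sought among 7872 genes with a mean of at least 5 FPKM, by Pearson correlation of log2(FPKM + 1). For Ezh2 they were Bdkrb1 (r = 0.998), 1810074P20Rik and Rsrc1, and for Eed they were Nudt1 (r = 0.995), Mterfd2 and Zfp873. Bdkrb1 had means of 18.5 and 13.2 FPKM in WT and cKO zygotes and 1.30 and 1.32 in WT and cKO 2-cell embryos, and Nudt1 had means of 27.3, 26.8, 3.41 and 8.78 FPKM in the same groups. The likeness of Ezh2 was to genes low in both 2-cell groups, and that of Eed to genes higher in cKO than in WT 2-cell embryos. For Ezh1 they were Tm2d3 (r = 0.985), Msh3 and Ccdc84, and for Suz12 Yes1 (r = 0.950), Fam49a and Ect2. Each r rests on 8 points that share 4 groups, and so mostly describes the group means.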

How the data were processed

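RNA from 10 embryos per library was amplified by Smart-seq2. The authors trimmed reads to 50 bases and deposited FPKM values per gene. The submitters' processing notes name mm9, TopHat2 2.1.1 and Cufflinks 2.2.1. The annotation is not given in the sources used here. The deposited FPKM table has a floor of 1, and no gene stays at 1 in all libraries. Depth is unknown, so the number of libraries, 2 in each group, sets the precision.

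Differences were tested with limma 3.58.1 (R 4.3.3) after adding 1 to each FPKM and taking log2. The model held 4 groups (4 residual degrees of freedom), a trended prior and no replicate block. Fold changes on this scale understate those of low genes. Calls used an adjusted p under 0.05 (Benjamini-Hochberg, 14392 genes), and ratios of group means were set against 3-fold. The calculation was tested on simulated data. Tables were handled with Python 3.11.15, pandas 2.3.3 and numpy 2.4.6. Gene positions are from GENCODE for mm9, and promoters from RefSeq.

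The members and lists were chosen with earlier results of these data known. The text names all 9 members and Usp16, and of other lists genes called or past 3-fold, or else the most abundant. 1 listed gene is not reported here. The alternatives were other scalings, pseudocounts and filters, no trend, a replicate block, and leaving out each library. A spread for each group and a crossed block were chosen after seeing the data.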

Additional observations from a re-analysis of the deposited data

Results flagged for a closer look

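An interaction term in limma, which tests whether the cKO effect differed between 2-cell embryos and zygotes, passed for 3 genes of the PRC2, PRC1 and target lists. They were 1 of 9 PRC2 members, 1 of 9 PRC1 genes and 1 of 9 developmental genes, all called lower. None of the 6 other PRC2 genes, 3 genes of the demethylase list and 5 imprinted genes passed. Of all genes 10.2% were called lower and 1.58% higher, so 1 of 9 is near the share of all genes. Phf1 had an interaction of -2.17 (adjusted p = 0.0171), with the libraries of both 2-cell groups on either side of the zygote libraries. Yaf2 had an interaction of -1.95 (adjusted p = 0.0264), and its cKO libraries were at 46.6 and 37.1 FPKM in zygotes and 8.59 and 8.29 in 2-cell embryos. Gata6 had an interaction of -0.92 (adjusted p = 0.0464), and its highest library was at 3.59 FPKM, in WT 2-cell embryos, with all zygotes at 1. Since it entered the table mainly through the WT 2-cell libraries, the direction of this value was largely fixed. With median-ratio scaling Yaf2 (-1.47, adjusted p = 0.0777) and Gata6 (-0.52, adjusted p = 0.206) did not pass. The Phf1 interaction was lost without any 1 of the zygote libraries, when only 1 or 2 of all genes passed. With 2 libraries per group, no group was large enough to be searched for single outlying libraries.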

How the results depend on the processing

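Of 9 members, 2 were called between the genotypes in 2-cell embryos, but 1 when libraries were scaled to the same sum (Phf1). With the 4 libraries of the stage alone 0 were called, and with a spread for each group (array weights) 1. Of all genes, 887 were called higher and 3538 lower, but 0 and 0 with the 4 libraries alone and 120 and 854 with a spread for each group. With the same sum fewer of all genes were called higher (551) and more lower (4065), and the lost call was that of Mtf2, higher in cKO. Over all alternatives, with single libraries left out among them, the Phf1 difference ran from -2.665 to -1.958. That of Mtf2 ran from 0.7749 to 1.5. For the stages in cKO embryos 6 members became 3 to 7 when single libraries were left out (3 without cKO zygote replicate 1). For the interaction 1 became 2 with median-ratio scaling, and 0 to 5 when single libraries were left out (5 without cKO 2-cell replicate 1). With a 2-fold in place of a 3-fold rule, 2 members passed between the 2-cell groups and 5 between the stages in WT and in cKO embryos. The share of all genes past 2-fold is not given, so these counts cannot be set against it. Differences turned sign only for members that were not called. With median-ratio scaling, those of Ezh1 (0.133), Ezh2 (0.28) and Jarid2 (0.00445) between the 2-cell groups and of Aebp2 between the WT stages (-0.232) turned, and with the same sum that of Suz12 between the 2-cell groups (-0.229). Leaving out single libraries, Suz12 ran from -0.244 to 0.286 between the 2-cell groups, from -0.61 to 0.248 between the WT stages and from -0.524 to 0.00589 between the cKO stages, and Jarid2 from -0.94 to 0.138 between the 2-cell groups. The cause of these shifts was not tested.

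Replicate numbers are shared by the groups, but no source describes a pairing. The deviations of libraries with the same number correlated at 0.497 between the zygote groups, at -0.239 between the 2-cell groups and at -0.0471 to 0.11 otherwise. With the replicate number as a block, 2, 5 and 6 members were called between the 2-cell groups, the WT stages and the cKO stages (without it 2, 6 and 6), 0 between the zygote groups and 1 for the interaction. Jarid2 between the WT stages lost its call in this block. With the numbers crossed in cKO 2-cell embryos, the counts were 2, 6 and 7. Depth is unknown, and 2 libraries per group limit what can be called.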
